A study of Macaca mulatta with 24 samples.

Results

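The unplaced scaffolds of the rhesus macaque genome build rheMac8 are assembled sequences that carry no chromosome number. In the deposited methylation table they were taken as every row whose sequence name was not 1 to 20, X, Y, M or MT. This rule used names and no measured value. It gave 23605 of the 841143 CpGs in the table (2.81%), on 3641 scaffolds, beside 790368 CpGs on chromosomes 1 to 20, 26995 on the X chromosome, 62 on the Y chromosome and 113 on mitochondrial DNA. Scaffold names began with JSUE in 3153 cases and with KQ in 488.

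Visceral (omental) white adipose tissue (WAT) of 24 female rhesus macaques was assayed for DNA methylation by RRBS (reduced-representation bisulfite sequencing). The labels give the animals as 4 years old, while the study's methods put them at an older age at biopsy. The design crossed an implant with a diet, with 6 animals in each group: C received cholesterol implants and monkey chow, T testosterone implants and chow, WSD cholesterol implants and a high-fat western-style diet, and T+WSD both testosterone and that diet. Per the study's methods, the animals had received 3 years of treatment when the biopsies were taken. Animals 1 to 6 were C, 7 to 12 T+WSD, 13 to 18 T and 19 to 24 WSD. The identity of the tissue was not checked here, since the table holds methylation and no expression.

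In adult mammalian tissue most CpGs are methylated, and the main exceptions are CpG-dense stretches such as CpG islands at gene starts. RRBS reads DNA near the cutting sites of MspI, an enzyme that cuts at CCGG whether or not the inner CpG is methylated, and so covers CpG-dense sequence well. Sequence is left out of the chromosomes of an assembly mostly where it is repeated, present in several near-identical copies or variable between individuals, so that a read assigned to a scaffold may come from more than 1 place in the genome. Genes and repeats on these scaffolds are not described, because no annotation of this build was used here.

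Most scaffolds held few measured CpGs. The median was 3 and the mean 6.48 per scaffold, with 543 scaffolds (14.9%) represented by 1 CpG, 2615 by 2 to 9 and 483 by 10 or more. These 483 scaffolds held 12751 CpGs, or 54.0% of the scaffold CpGs, and 43 of them held at least 50. Sequences with KQ names were richer, with a median of 7 CpGs and a maximum of 437, compared with 3 and 83 for those with JSUE names. The 5 scaffolds with the most CpGs, all with KQ names, together held 1416 CpGs (6.00%).

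Scaffold CpGs were more methylated than those on chromosomes 1 to 20. The mean over CpGs was 63.3% on scaffolds, 50.1% on chromosomes 1 to 20 and 57.5% on the X chromosome, and the medians were 79.1%, 61.9% and 66.4%. Unmethylated CpGs were the scarcer class. A mean level under 5% was found in 13.99% of scaffold CpGs and 31.8% of chromosome CpGs, whereas a level over 80% was found in 48.9% and 40.4%. Levels from 20% to 80% were also more common on scaffolds, at 30.6% compared with 20.9%. The X chromosome held still more CpGs in that middle range (45.4%), many of them from 20% to 40%. Sequences with JSUE and KQ names had similar means of 64.0% and 62.1%.

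**Figure D1:**
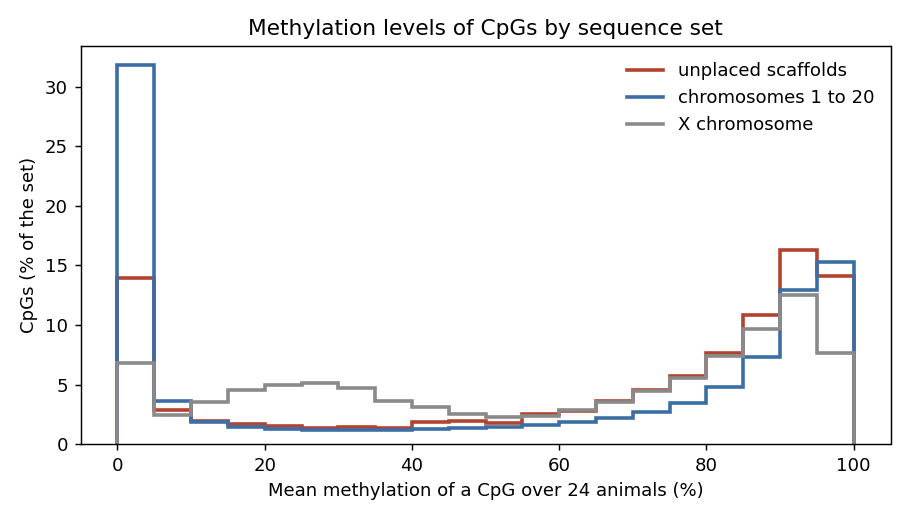
Distribution of mean methylation over 24 animals, in bins of 5 percentage points, as a percent of the CpGs of each set: unplaced scaffolds, chromosomes 1 to 20 and the X chromosome. The lowest bin holds 13.99% of scaffold CpGs and 31.8% of chromosome CpGs, and the scaffolds lie above the chromosomes in each bin from 10% to 95%.

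The difference in level held in each animal. Over CpGs with a value in all 24 animals (12086 on scaffolds and 459815 on chromosomes 1 to 20), the scaffold mean ranged from 58.1% to 61.1%, with a median of 60.0%. The chromosome mean ranged from 44.0% to 46.0%, with a median of 45.2%. No animal's scaffold mean overlapped any chromosome mean. The scaffold mean was higher by 14.8 percentage points (SD 0.413, n = 24), from 13.9 in animal C 6 to 15.5 in animal C 5, and was higher in 24 of 24 animals (two-sided sign-flip permutation test, p = 1e-05, the smallest that 100000 permutations can give).

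Part of this difference went with CpG density, which was counted as the measured CpGs in the 1 kb tile that holds the CpG. Scaffold CpGs lay in sparser tiles than chromosome CpGs, with a median of 6 measured CpGs per tile compared with 8. Where a tile held 1 or 2 CpGs, the levels were 71.1% and 71.2%, and the scaffolds were the higher in 10 of 24 animals. In denser tiles the scaffolds were higher in 24 of 24 animals, by 4.31 points with 3 to 5 CpGs, 11.1 points with 6 to 10, 17.2 points with 11 to 20 and 11.1 points with 21 or more. In the tiles with 11 to 20 CpGs the scaffold level was 48.2% and the chromosome level 31.0%. With chromosome CpGs weighted to the density of the scaffolds, the difference was 8.77 points (SD 0.407, n = 24), from 7.83 to 9.42. These comparisons by density were chosen after the levels had been seen. A tile at the end of a short scaffold covers less than 1 kb, so that its CpG count is a lower limit.

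**Figure D2:**
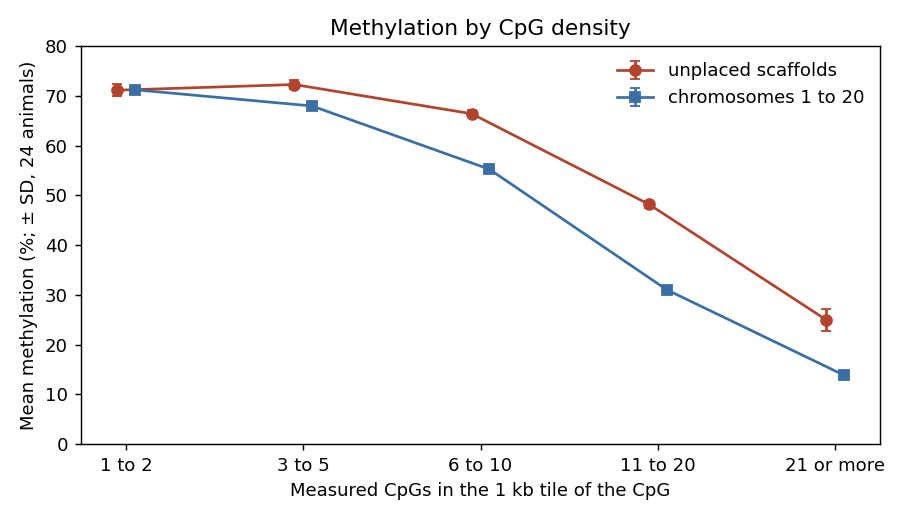
Mean methylation (%) of scaffold and chromosome CpGs, by the number of measured CpGs in the 1 kb tile, as mean ± SD over 24 animals of CpGs with a value in all animals. The curves start together at 71.1% and 71.2% and are farthest apart, by 17.2 points, in tiles with 11 to 20 CpGs.

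Missing values were the only measure of depth in the table, because it holds percentages without read counts and a CpG entered it with at least 10 reads in at least 4 of the 6 animals of each group. The depth behind a single value is unknown, and no confidence interval can be given for it. The share of missing values was 5.82% on scaffolds and 4.52% on chromosomes 1 to 20, a difference of 1.30 points (SD 0.983), with more missing on scaffolds in 23 of 24 animals (two-sided sign-flip permutation test, p = 3e-05). Animal T 16 had the most missing scaffold values, 13.1% compared with a median of 5.30% over the 24 animals, and was the 1 animal with fewer missing on scaffolds than on chromosomes. Of 1625 scaffold tiles with at least 5 CpGs, 498 (30.6%) lacked any value in at least 1 animal, compared with 16.7% of such chromosome tiles.

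Once level was taken into account, animals of 1 group differed on average slightly less from each other on scaffolds than on chromosomes. Without that step, the median SD between animals within groups was 7.17 points per scaffold CpG and 5.46 points per chromosome CpG. Spread depends on level, since values near 0% or 100% have little room to vary, so chromosome CpGs were weighted to the levels of the scaffold CpGs. For each animal, the mean distance of a CpG from the mean of the other animals in the group was then 7.09 points on scaffolds and 7.31 on chromosomes, a scaffold minus chromosome difference of -0.217 points (SD 0.252, n = 24). The scaffold value was the higher in 5 of 24 animals (two-sided sign-flip permutation test, p = 0.00039). The size depended on the settings: it was -0.108 points with level bins of 10 in place of 5 points (permutation p = 0.04196) and -0.366 points over CpGs with a value in all animals (permutation p = 2e-05). Each distance uses the other animals of the group, so the 24 differences are not independent, although these tests treat them so. The sign of the difference was not the same at all levels. In bins of 10 points, the median SD was higher on scaffolds from 0% to 40% and from 90% to 100%. It was lower on scaffolds from 40% to 90%. For CpGs from 20% to 30% the median SD was 12.6 points on scaffolds and 11.4 on chromosomes, and from 40% to 50% it was 12.9 and 13.7.

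The extremes of the spread differed in both directions. Values of a single CpG ranged over at least 80 points between animals at 726 scaffold CpGs (3.08%) and at 2.29% of chromosome CpGs, without regard to level. Among CpGs from 20% to 30%, the SD exceeded by 1 CpG in 10 was 22.1 points on scaffolds and 17.9 on chromosomes. From 60% to 90% the order was the opposite, with 20.3 and 21.6 points at 60% to 70%, 17.4 and 18.3 at 70% to 80%, and 13.3 and 13.7 at 80% to 90%. Tiles with at least 5 CpGs and a level from 20% to 80% had an SD over 12 points in 8.89% of cases on scaffolds and 10.4% on chromosomes. No test was made of these values. At 338 pairs of scaffold CpG entries at neighbouring positions, which can be the same CpG read on both strands, the paired values differed by 8.60 ± 1.36 points (SD, n = 24). The chromosome pairs differed by 8.91 ± 1.20 points, and the scaffold difference was the larger in 10 of 24 animals.

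The scaffold mean was next compared between groups, to ask whether testosterone or the diet moved methylation of these sequences as a whole. Values in C ranged from 59.0% to 61.1% with a median of 60.6%, and those in T from 59.1% to 60.2% with a median of 59.7%. Values in WSD ranged from 58.1% to 60.8% with a median of 60.0%, and those in T+WSD from 58.5% to 60.4% with a median of 59.7%. All 4 groups overlapped. T minus C was -0.627 points (two-sided exact permutation test over all splits of 6 against 6 animals, p = 0.1385, adjusted p = 0.2968 over 6 contrasts). WSD minus C was -0.472 points (exact p = 0.381, adjusted p = 0.4571) and T+WSD minus C was -0.754 points (exact p = 0.132, adjusted p = 0.2968). The main effects of testosterone and of the diet, each over 12 against 12 animals, were -0.454 points (permutation adjusted p = 0.2968) and -0.300 points (permutation adjusted p = 0.4571). The interaction, which is the T effect on the diet minus the T effect on chow, was 0.345 points (permutation adjusted p = 0.5886).

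With each scaffold given the same weight whatever its number of CpGs, the main effect of testosterone was -0.839 points and T minus C was -1.10 points (both permutation adjusted p = 0.04545), while T+WSD minus C was -1.26 points (permutation adjusted p = 0.05628). The calls thus depend on whether small scaffolds weigh as much as large ones. The chromosome level itself moved by -0.540 points in T minus C, -0.594 in T+WSD minus C and -0.443 with testosterone (each permutation adjusted p = 0.08225). The scaffold level minus the chromosome level of the same animal moved by -0.0109 points with testosterone, and none of its 6 contrasts passed (permutation adjusted p from 0.9091 to 0.9508).

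**Figure D3:**
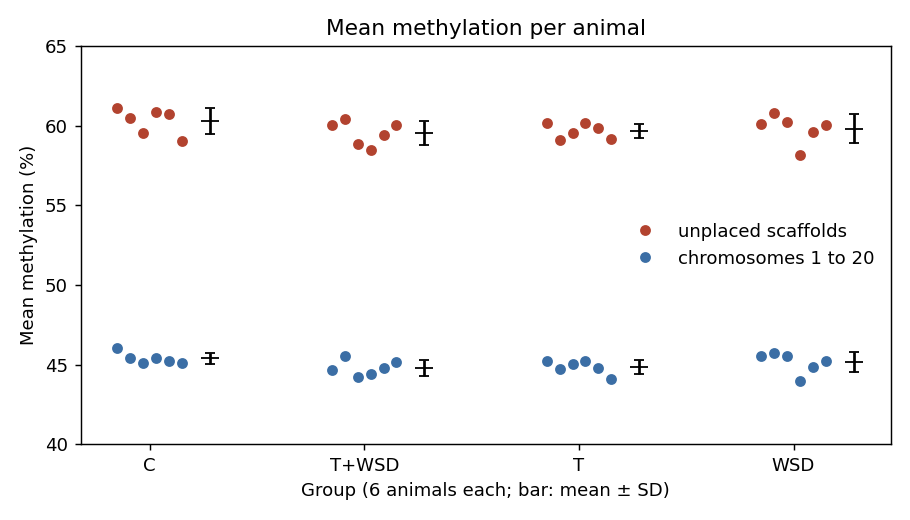
Mean methylation (%) of each animal over scaffold CpGs and over chromosome CpGs with a value in all 24 animals. Each dot is 1 animal and bars give mean ± SD of 6 animals. All scaffold means lie from 58.1% to 61.1% and all chromosome means from 44.0% to 46.0%, and the 4 groups overlap in both.

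The 5 scaffolds with the most CpGs differed widely in level and in how much the animals differed. KQ744902.1 (437 CpGs from position 5826 to 214147) had a mean of 77.2%, KQ732984.1 (234 CpGs from 18985 to 575844) 76.4% and KQ744364.1 (197 CpGs from 403 to 34543) 81.6%. In these 3 the animals lay close together, from 74.4% to 79.5%, from 73.9% to 78.8% and from 79.0% to 84.2%. KQ734471.1 (257 CpGs from 13195 to 271273) mixed low and high CpGs, with a mean of 35.0%, an SD of 35.4 points between its CpGs and animals from 29.5% in T+WSD 10 to 45.5% in T 13.

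KQ744006.1 stood apart from the other 4. Its 291 CpGs, from position 12248 to 43541, had a mean of 24.2%, and the animals ranged from 5.405% in C 3 to 56.9% in C 5 with a median of 21.3%. The 6 C animals alone had 26.7%, 23.3%, 5.405%, 11.8%, 56.9% and 9.07%, so the widest range lay within the control group. T ranged from 9.97% to 40.8%, WSD from 10.4% to 31.6% and T+WSD from 17.1% to 38.1%, and all groups overlapped. Animal C 5 had the highest value at 231 of the 291 CpGs, and had a value at 277 of them. Across the 5 scaffolds and 6 contrasts, 30 permutation tests gave no adjusted p under 0.05 (lowest adjusted p = 0.4731, and 2 with an unadjusted p under 0.05). Tests on these 5 scaffolds were chosen after the data had been examined.

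The scaffolds with the extreme levels among the 483 with at least 10 CpGs are given as a description, since level or spread chose them. Of the 483, 127 had a mean under 20%, 198 from 20% to 80% and 158 over 80%, and the median was 70.5%. The highest means were 97.7% in JSUE03288197.1 (12 CpGs from position 64 to 110), 97.3% in JSUE03244391.1 (13 CpGs from 472 to 716) and 97.2% in JSUE03136528.1 (11 CpGs from 243 to 590). The lowest were 0.0846% in JSUE03107649.1 (10 CpGs from 522 to 583), 0.359% in JSUE03058689.1 (10 CpGs from 19 to 90) and 0.391% in JSUE03244612.1 (10 CpGs from 13 to 87). The CpGs of these 6 scaffolds spanned 47 to 348 bp. Over the whole set, 69 of the 483 scaffolds had a mean under 5%.

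The largest mean SD within groups was 20.1 points in KQ741992.1 (16 CpGs from position 13995 to 37059), where animals ranged from 21.7% in T+WSD 11 to 84.1% in WSD 20. It was 19.8 points in JSUE03283234.1 (28 CpGs from 2085 to 4769), with animals from 1.64% in C 3 to 55.7% in C 5. It was 19.2 points in JSUE03304458.1 (15 CpGs from 194 to 727), with values in 22 animals from 26.6% in C 4 to 82.5% in WSD 20. The 4 groups overlapped in each of these 3 scaffolds. A mean SD over 15 points was found in 8 of the 483.

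The levels of 6 tiles of 1 kb on other scaffolds followed KQ744006.1 over the 24 animals. They were found by searching, after its range had been seen, all tiles with at least 5 CpGs and a value in every animal, so no p-value is given. Pearson's r was at least 0.8 in 6 of 1122 tiles on other scaffolds, in 0 of 44578 tiles on chromosomes 1 to 20 (highest r 0.756) and in 0 of 1472 tiles on the X chromosome (highest r 0.617). The closest was JSUE03194956.1 from 1 to 1000 (12 CpGs), with r = 0.963, Spearman's rho = 0.952, and r = 0.933 without C 5 and T 17, the animals farthest from the median. Its levels ran from 3.385% in C 3 to 39.0% in C 5. The others were on JSUE03233484.1 (r = 0.902), JSUE03153161.1 (r = 0.896), JSUE03197820.1 (r = 0.880), JSUE03091487.1 (r = 0.834) and JSUE03285334.1 (r = 0.831).

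Without C 5 and T 17, r stayed over 0.8 in 4 of the 6 tiles and was 0.701 in JSUE03091487.1 and 0.734 in JSUE03285334.1. Within animals 1 to 12, r ranged from 0.851 to 0.994 over the 6 tiles, and within animals 13 to 24 from 0.765 to 0.911. C 5 was the highest animal in 4 of the tiles and T 17 in the other 2, and C 3 was the lowest in 5. The tiles shared libraries with KQ744006.1, and whether they share sequence or reads with it was not tested.

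**Figure D4:**
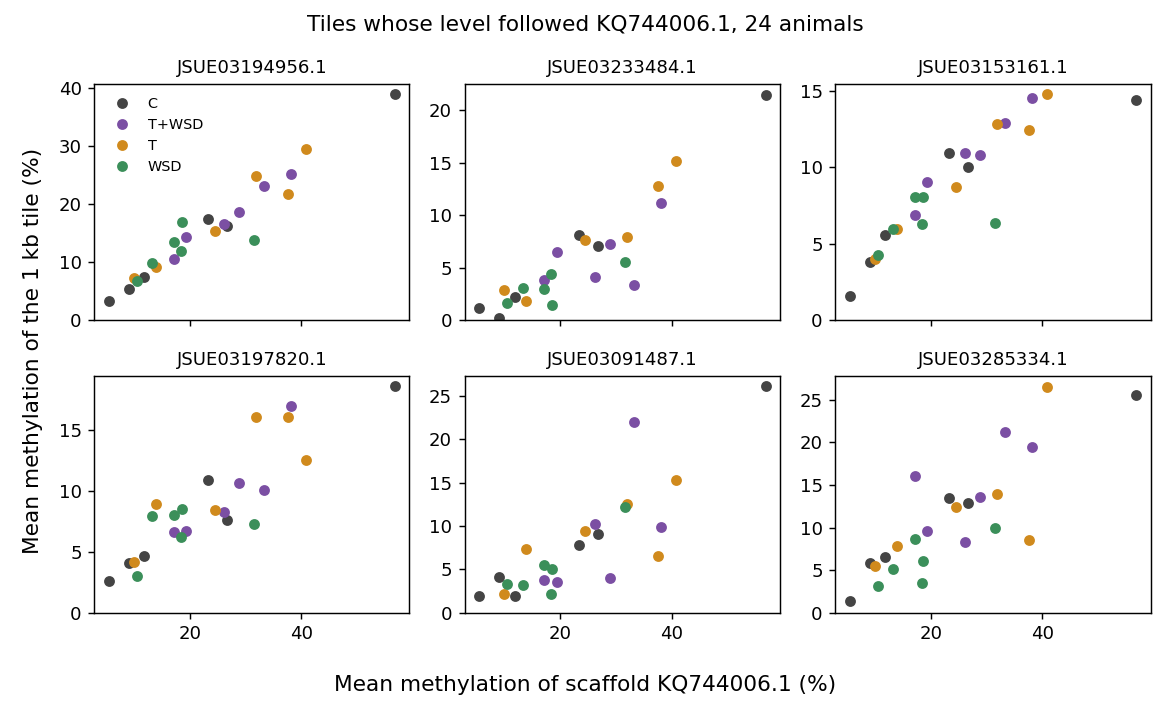
Mean methylation (%) of 6 scaffold tiles of 1 kb against that of scaffold KQ744006.1, with 1 dot per animal coloured by group (24 animals, vertical scales differ). The tiles were selected for a Pearson's r of at least 0.8; animal C 5 lies at the right in each panel, at 56.9% of KQ744006.1.

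Single CpGs were tested with limma on the arcsine of the square root of the methylation rate over all 841143 CpGs. A CpG was called differentially methylated (DMC) at an adjusted p under 0.05 and a contrast over 10 percentage points in either direction. The contrast is a difference in group means, and for the interaction a difference of such differences. In the interaction, single groups can therefore lie closer together than 10 points. The scaffolds held 6 of the 47 DMCs of T minus C (1 higher and 5 lower in T, beside 0.000238% and 0.00535% of all CpGs). That is 0.0254% of scaffold CpGs, beside 0.00559% of all CpGs and 0.00443% of those on chromosomes 1 to 20. In WSD minus C they held 8 of 47 (2 higher and 6 lower in WSD, beside 0.000594% and 0.00499% of all CpGs), which is 0.0339% compared with 0.00559% of all CpGs. In the interaction they held 13 of 146 (9 positive and 4 negative, beside 0.0139% and 0.00345% of all CpGs), which is 0.0551% compared with 0.0174% of all CpGs. With limma at an unadjusted p under 0.05, T minus C gave 6.65% of scaffold CpGs, compared with 5.58% of all CpGs. WSD minus C gave 6.24% compared with 6.28%, and the interaction 6.12% compared with 5.42%.

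None of the 58 DMCs of T+WSD minus C was on a scaffold, beside 0.0069% of all CpGs. The count of 58 fell to 3 without animal C 1 and to 0 over CpGs with a mean level from 5% to 95%. It rose to 78 on the untransformed rate, 69 over CpGs with a value in all 24 animals and 73 without T 16. At an unadjusted p under 0.05, limma gave 1658 scaffold CpGs (7.02%) in that contrast, compared with 7.70% on the chromosomes. The main effects of testosterone and of the diet gave 0 scaffold DMCs in limma, and over all CpGs 0 and 3 (0.0% and 0.000357%). At an unadjusted p under 0.05, limma gave 1548 scaffold CpGs (6.56%) for testosterone, compared with 5.89% of all CpGs, and 1521 (6.44%) for the diet, compared with 7.07%.

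The DMCs of the 3 contrasts were largely the same CpGs. All 6 of T minus C were among the 8 of WSD minus C, and all 8 were among the 13 of the interaction, which lay on 8 scaffolds, all with JSUE names. These contrasts share the C animals, so their overlap carries no independent weight. CpGs on the same scaffold are also not independent: 4 of the 13 lay between positions 997 and 1067 of JSUE03120588.1.

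The groups followed the animal numbers at each of these CpGs: T and WSD (animals 13 to 24) moved away from C while T+WSD (animals 7 to 12) stayed near it. The interaction sets these same animals against each other, so this pattern follows from how the 13 CpGs were selected and is given as a description. The difference between animals 1 to 12 and animals 13 to 24 was 10.2 to 42.2 points. Within these sets, T+WSD differed from C by 0.218 to 12.04 points, and T from WSD by 0.593 to 10.6 points. The labels name no batch. T minus C, WSD minus C and the interaction all contrast or weigh animals 1 to 12 against 13 to 24, so a treatment effect and any difference that goes with the numbering cannot be told apart.

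Position 4755 of JSUE03279608.1 had the largest interaction among the scaffold DMCs. Methylation ranged from 64.2% to 74.5% in C (median 66.3%) and from 45.25% to 62.4% in T+WSD (median 56.7%). It ranged from 9.68% to 24.7% in T (median 15.2%) and from 17.4% to 26.8% in WSD (median 19.9%). Every animal of C and T+WSD was above every animal of T and WSD. The T minus C difference was -50.3 points (limma adjusted p = 1.69e-07), the WSD minus C difference -46.3 points (limma adjusted p = 1.32e-06) and the interaction 84.5 points (limma adjusted p = 4.97e-09). The 2 other measured CpGs within 100 bp, at 4727 and 4794, differed between animals 1 to 12 and 13 to 24 by 11.6 and 5.68 points, compared with 42.2 points at 4755.

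JSUE03120588.1 had 36 measured CpGs and 4 interaction DMCs. At position 1056 methylation was 88.5 ± 3.05% in C and 82.4 ± 6.26% in T+WSD, compared with 53.7 ± 4.73% in T and 52.2 ± 5.50% in WSD (SD, n = 6 each), and the sets 1 to 12 and 13 to 24 did not overlap. The interaction was 65.003 points (limma adjusted p = 1.24e-07). Positions 1067 and 1052 moved the same way, with interactions of 52.8 points (limma adjusted p = 4.75e-06) and 48.3 points (limma adjusted p = 0.000188). Position 997 moved the opposite way, with 36.5 ± 14.3% in C, 48.0 ± 15.6% in T+WSD, 68.4 ± 7.46% in T and 71.5 ± 4.94% in WSD (SD, n = 6 each). Its interaction was -55.4 points (limma adjusted p = 0.0386). The neighbouring position 998, which can be the same CpG read on the other strand, did not share this pattern. Its means were 71.0% in C, 70.2% in T+WSD, 74.3% in T and 74.6% in WSD. The 11 measured CpGs within 100 bp of position 1056 include the other 3 of these DMCs and differed between animals 1 to 12 and 13 to 24 by -27.7 to 26.4 points, with a median of 0.00917 points.

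At position 3380 of JSUE03161173.1, C ranged from 49.7% to 69.9% and T+WSD from 44.0% to 56.0%, while T ranged from 10.7% to 46.2% and WSD from 19.3% to 31.3%. One T animal, at 46.2%, overlapped the range of T+WSD. The interaction was 61.8 points (limma adjusted p = 0.000198), and the CpGs at 3335 and 3394 differed between animals 1 to 12 and 13 to 24 by 2.47 and 9.38 points.

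JSUE03310548.1 held both of the DMCs that were higher in WSD than in C, and 1 of them was also called in T minus C. At position 418, C ranged from 39.2% to 50%, T+WSD from 36.2% to 48.3%, T from 58.2% to 64.98% and WSD from 61.25% to 68.55%. No animal of the first pair of groups overlapped the second. T minus C was 15.4 points (limma adjusted p = 0.0135) and WSD minus C 20.01 points (limma adjusted p = 0.000407). Position 423 followed with 62.1%, 69.7%, 74.6% and 61.7% as the means of C, T, WSD and T+WSD, while positions 433 and 443 differed by at most 2.17 points between animals 1 to 12 and 13 to 24. This scaffold was chosen for its direction after its values had been seen.

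The remaining interaction DMCs had interactions from -26.0 to 50.4 points and were named after their values had been seen. In JSUE03206349.1 positions 5340 and 5343 were near 95% in animals 1 to 12 (95.2% and 95.1%) and at 69.8% and 72.7% in animals 13 to 24, of which 3 had no value there. Single DMCs in JSUE03165355.1 (position 463), JSUE03174386.1 (position 218) and JSUE03319457.1 (position 646) had differences of -13.0, 18.04 and 14.4 points between the 2 sets of animals.

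**Figure D5:**
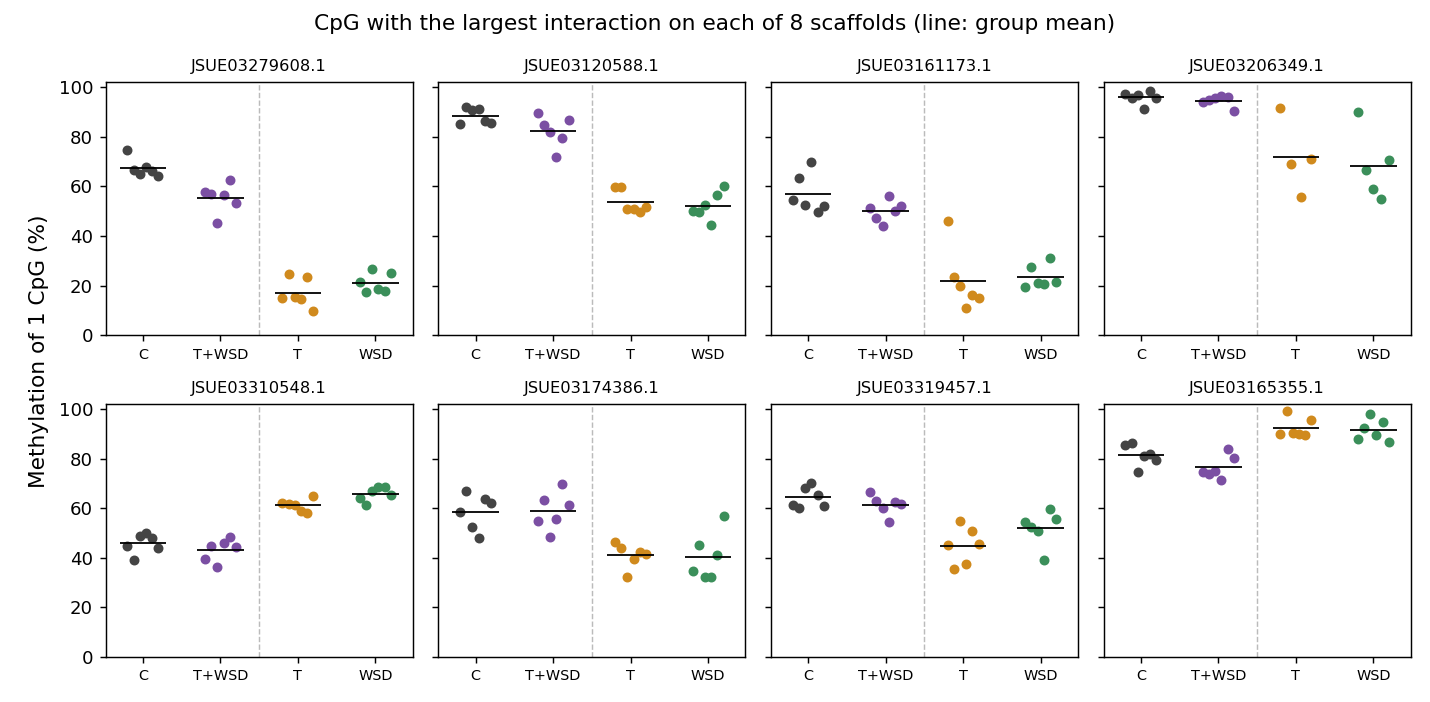
Methylation (%) of the CpG with the largest interaction on each of the 8 scaffolds that held an interaction DMC, with 1 dot per animal and a line at the group mean. A dashed line parts animals 1 to 12 (C and T+WSD) from animals 13 to 24 (T and WSD); in JSUE03279608.1 all values on the left are at least 45.25% and all on the right at most 26.8%.

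CpGs without any overlap between sets of animals were also counted, which uses no model. Animals 1 to 12 and 13 to 24 did not overlap at 6 scaffold CpGs (0.0254%, beside 0.00737% of all CpGs). These lay on 5 scaffolds, with 4 higher and 2 lower in animals 1 to 12. All 6 were among the interaction DMCs named above, so this count carries no independent weight. At position 5343 of JSUE03206349.1, only 9 of animals 13 to 24 had a value. The balanced splits gave none on scaffolds. With and without testosterone were fully apart at 0 scaffold CpGs (3 of all CpGs, 0.000357%), and WSD and chow at 0 (7 of all CpGs, 0.000832%).

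Neighbouring CpGs were then joined in 1 kb tiles with at least 3 CpGs, 3290 of them on scaffolds among 100864 in all, with the same thresholds. T+WSD minus C, which lies within animals 1 to 12, gave 3 scaffold tiles (0.0912%), all lower in T+WSD, beside 0.206% of all tiles (0.127% lower) and 0.216% of chromosome tiles. In JSUE03210404.1 from 1 to 1000 (5 CpGs), C ranged from 49.6% to 68.0% and T+WSD from 31.25% to 50.4%, so the ranges just overlapped. The difference was -22.9 points (limma adjusted p = 0.0175), and T and WSD lay between, at 44.2% and 48.4%.

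In JSUE03219951.1 from 1 to 1000 (4 CpGs) the difference between T+WSD and C was -20.6 points (limma adjusted p = 0.045), with C from 32.1% to 58.3% and T+WSD from 20.8% to 29.6%. In JSUE03313727.1 from 20001 to 21000 (6 CpGs) it was -14.8 points (limma adjusted p = 0.0462), with C from 81.8% to 94.4% and T+WSD from 70.0% to 84.1% in 5 animals with a value. The ranges were apart in the first of these scaffolds and overlapped in the second. Without animal C 1, none of the 3 tiles remained, and the count over all tiles fell to 10.

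T minus C gave 2 scaffold tiles, both lower in T (0.0608%, beside 0.00793% of all tiles), and 1 when either T 16 or C 1 was left out (of 4 and 3 over all tiles). One was JSUE03279608.1 from 4001 to 5000, which holds position 4755, at -12.04 points (limma adjusted p = 0.00528). The other was KQ738710.1 from 37001 to 38000 (4 CpGs), at -16.3 points (limma adjusted p = 0.0458), where T ranged from 43.6% to 54.7%, below C (61.7% to 71.9%) and T+WSD (58.5% to 66.7%). WSD there ranged from 51.2% to 68.0% and overlapped each of the other groups. The means of C, T+WSD, WSD and T were 66.7%, 63.2%, 61.8% and 50.4%. WSD minus C gave 1 tile, again the one in JSUE03279608.1, at -10.9 points (limma adjusted p = 0.0153, 0.0304%, beside 0.00397% of all tiles), and none without C 1 (of 2 over all tiles).

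The tile interaction was called in 3 scaffold tiles (0.0912%, beside 0.0178% of all tiles), and each held CpGs named above: JSUE03120588.1 from 1001 to 2000, JSUE03279608.1 from 4001 to 5000 and JSUE03310548.1 from 1 to 1000. The main effects of testosterone and of the diet gave 0 scaffold tiles in limma, beside 0.0% and 0.0129% of all tiles. At an unadjusted p under 0.05, limma gave 271 scaffold tiles (8.24%) for testosterone, compared with 7.64% of all tiles, and 231 (7.02%) for the diet, compared with 9.42%.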

How the data were processed

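RRBS libraries were made by the authors from MspI-digested omental WAT DNA. Per the labels and methods, reads were checked and trimmed (FastQC 0.11.5, Trim Galore 0.4.2) and aligned to rheMac8 with Bismark 0.16.1. The deposited table holds a methylation percent per CpG and animal, which the authors kept where at least 10 reads covered the CpG in at least 4 of 6 animals per group. It has no read counts, so no coverage minimum could be raised and the depth is unknown. All 24 columns were matched to animals by name (0 columns had no sample), and no pair was identical.

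Scaffold rows were selected by sequence name, and positions are those of the deposited table. Levels, spread and missing values were compared within animals by sign-flip permutation (100000 draws), and groups by permutation over animals, exact for 6 against 6 (smallest p = 0.002165), with Benjamini-Hochberg adjustment. CpGs and tiles were fitted over the whole table with limma 3.58.1 (R 4.3.3), and a numpy 2.4.6 version of that fit, tested on simulated data, served the alternatives. P-values rest on 6 animals per group.

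The rule for names took the 5 scaffolds with the most CpGs, the 3 highest and 3 lowest in level and the 3 with the largest spread among those with at least 10 CpGs, and the called CpGs and tiles (at most 5 per contrast, by size). Called CpGs beyond that number were named as well. Members and lists were chosen with earlier results of these data known. No sequence is printed, because no genome of this build was used here. Alternatives were the set of CpGs, the weighting, the transformation, the filter on level, the thresholds and the removal of animals.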

Additional observations from a re-analysis of the deposited data

Results flagged for a closer look

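Of 72 group values examined for a sample far from its group, 9 stood out, where chance gives about 1 in 20, or about 3.6. That figure does not allow for values near 0% or for scaffolds chosen by level or spread. The 9 are therefore not read as an excess. The spread of scaffold CpGs was 9.68 points in T 16, compared with 6.69 to 7.51 in the other T animals, and T 16 also had the most missing values. KQ734471.1 was at 45.5% in T 13, compared with 30.2% to 35.7% in the other T animals. JSUE03288197.1 was at 95.8% in C 6, below 99.1% to 99.7% in the C animals with a value. JSUE03304458.1 was at 46.0% in T 16, below 64.8% to 71.3%. The other 5 were in 2 scaffolds near 0%: JSUE03058689.1 was at 0.370% in C 1, 1.19% in T 17 and 2.64% in WSD 21, and JSUE03244612.1 at 1.90% in T 13 and 1.67% in T+WSD 8.

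The difference of the testosterone effect between the diets was called at 13 scaffold CpGs. It was positive, in percentage points, at JSUE03279608.1 position 4755 (84.5), JSUE03120588.1 positions 1056 (65.003), 1067 (52.8) and 1052 (48.3), JSUE03161173.1 position 3380 (61.8), JSUE03206349.1 positions 5340 (50.4) and 5343 (43.7), JSUE03174386.1 position 218 (36.1) and JSUE03319457.1 position 646 (28.8). It was negative at JSUE03120588.1 position 997 (-55.4), JSUE03310548.1 positions 418 (-38.0) and 423 (-20.4) and JSUE03165355.1 position 463 (-26.0). Among tiles it was called in JSUE03120588.1 from 1001 (23.7), JSUE03279608.1 from 4001 (18.1) and JSUE03310548.1 from 1 (-13.7). In each of these C and T+WSD had means on one side of those of T and WSD. At 6 of the 13 CpGs animals 1 to 12 and 13 to 24 did not overlap, and at the other 7 they did. A treatment effect cannot be told apart from a difference that goes with the numbering.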

How the results depend on the processing

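No paired analysis was possible because the groups share no replicate numbers. The higher level, the lower spread at matched level and the larger missing share of scaffold CpGs kept their sign and stayed past the threshold under each alternative tried. The spread difference ranged from -0.366 points (CpGs with a value in all animals) to -0.108 points (level bins of 10 points). The level difference ranged from 7.32 points (each scaffold or tile weighing the same) to 15.2 points (without the 5 largest scaffolds). With each scaffold weighing the same, the T main effect on the scaffold level became -0.839 points and T minus C -1.10 points, both past the threshold, and the cause was not tested. Leaving out each animal in turn gave -0.880 to -0.459 points for T minus C, -0.726 to -0.139 for WSD minus C, -1.01 to -0.544 for T+WSD minus C, -0.621 to -0.349 for the T main effect, -0.426 to -0.133 for the WSD main effect and 0.0115 to 0.599 for the interaction, with adjusted p of 0.1343 or more. Scaffold DMCs numbered 4 to 6 for T minus C, 6 to 8 for WSD minus C and 10 to 15 for the interaction. Over all CpGs the same settings gave 34 to 65, 35 to 77 and 93 to 199. At an adjusted p under 0.1, T+WSD minus C gave 1 scaffold DMC of 226 over all CpGs and 7 scaffold tiles of 658 over all tiles. Without T 16 the WSD main effect gave 1 scaffold DMC of 8 over all CpGs. T minus C gave 1 scaffold tile with at least 5 CpGs per tile, without T 16 and without C 1 (of 4, 4 and 3 over all tiles). Without C 1, WSD minus C and T+WSD minus C gave 0 scaffold tiles, of 2 and 10 over all tiles. With all animals, limma at an unadjusted p under 0.05 gave 219 and 289 (6.66% and 8.78% of scaffold tiles, compared with 7.44% and 10.9% of all tiles). The planned adjustment over scaffold CpGs alone was not run. Precision is limited by 6 animals per group, by unknown depth and by reads that several copies of a sequence may share.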
